A study of Mus musculus with 18 samples.

Results

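Retinoic acid (RA) genes were followed in bulk RNA-seq libraries of mESCs and of the embryoid bodies (EBs) formed from them. The 9 genes were taken by symbol from a table of reads counted on 55487 genes, and all 9 were found: the receptors Rara, Rarb and Rarg, the synthesis and retinoid handling genes Aldh1a2, Dhrs3 and Stra6, the binding proteins Crabp1 and Crabp2, and the RA-degrading enzyme Cyp26a1. The 18 libraries came from ES-E14TG2a mESCs, a mouse line derived from the blastocyst, in which Cas9 and guides to the first exon of Nfkbia removed the NF-κB inhibitor IκBα (IκBα-KO), while IκBα-WT clones had received scrambled guides. Each genotype was carried by 3 independent single-cell clones, so each library stands for 1 clone. The mESCs (3 IκBα-WT and 3 IκBα-KO libraries) grew in Serum/LIF, and EBs formed in suspension in medium with serum, ascorbic acid, transferrin and monothioglycerol and without LIF were taken at 48 hr and 96 hr (6 libraries each). No retinoid is named among the additions to that medium. By the labels each EB stage holds 3 IκBα-WT and 3 IκBα-KO clones, but the columns of the EB libraries carry a stage and a clone code (D4, E14, E2, E3, H7, H9) and no genotype. EB libraries were therefore compared by stage, over both genotypes, and genotypes were compared in mESCs.

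RA is made from vitamin A in steps. STRA6 is a membrane receptor that takes up retinol from its carrier in the blood, dehydrogenases turn retinol into retinaldehyde, DHRS3 turns retinaldehyde back into retinol, and ALDH1A2 oxidises retinaldehyde to RA. Inside the cell CRABP1 and CRABP2 bind RA, the nuclear receptors RARα, RARβ and RARγ bind it as partners of RXRs on DNA, and CYP26A1 oxidises it for removal. In the gastrulating embryo RA helps to pattern the trunk and the hindbrain, and Rarb, Cyp26a1, Dhrs3 and Stra6 are known as genes that RA itself induces in many cells.

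RARs bind repeats of a 6-base element, and the best known arrangement, DR5, has 5 bases between 2 elements that point the same way. The promoters of Rarb and Cyp26a1 are shown because they were the only members in which a DR5 was found. DR5 and DR2 (2 bases between the elements) were searched on both strands in RefSeq promoter windows of 250 bases before to 50 bases after the start. Each element could be the canonical AGGTCA, its variant with AGTTCA, the form that reads GGGTCA, or the form that reads GGTTCA. DR5 was present in 32 of 32851 windows of all genes (0.0974%) and DR2 in 88 (0.268%). No RefSeq window was matched for Crabp2. Among the 8 members with a window, Rarb and Cyp26a1 held a DR5 and no member held a DR2, so no DR5 overlapped a DR2. The 120 bases before each start are printed 5′ to 3′ along the gene with the DR5 in capitals. Rarb lies on the minus strand (GRCm38.p6, chr14:16575477-16575596) and its DR5 stood 53 to 37 bases before the start. Cyp26a1 lies on the plus strand (chr19:37697688-37697807), and its DR5, 32 to 16 bases before the start, read as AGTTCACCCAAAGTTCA on the opposite strand.
Rarb: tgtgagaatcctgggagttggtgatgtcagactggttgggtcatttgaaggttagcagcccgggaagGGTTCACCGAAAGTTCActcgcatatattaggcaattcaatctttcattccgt
Cyp26a1: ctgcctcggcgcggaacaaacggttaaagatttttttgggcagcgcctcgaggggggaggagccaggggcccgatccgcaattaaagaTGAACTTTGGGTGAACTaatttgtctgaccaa
A match is a description of these letters and does not show that a receptor was bound there.

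The authors deposited whole-number counts per gene, which were turned here into CPM (counts per gene divided by the TMM-scaled library size, in units of a millionth). Library totals ranged from 29423089 to 31091857 counts in IκBα-WT mESCs, from 34107070 to 40904247 in IκBα-KO mESCs, from 28287582 to 33169091 in 48 hr EBs and from 30570857 to 36340056 in 96 hr EBs. Nfkbia, the targeted gene, was at 34.2, 35.1 and 25.3 CPM in the IκBα-WT clones and 10.2, 9.44 and 10.1 CPM in the IκBα-KO clones, so the mESC labels and the target went the same way. Summed over 10 pluripotency markers, mESCs held 3181 to 4100 CPM, 48 hr EBs 1489 to 2261 CPM and 96 hr EBs 707 to 1695 CPM, and no marker of any of the 7 lists examined was at 0 in a whole stage. Some libraries stood apart. IκBα-KO clone 2 had a median correlation of 0.975 with the other IκBα-KO mESCs (log2 CPM of 13177 genes), while IκBα-KO clones 1 and 3 had a correlation of 0.995 with each other. E14 at 96 hr had the lowest median correlation with its stage, 0.900. Several results of the 9 members that rest on either are given with and without it, though not every one. Those of other named genes are given with all libraries only. A gene was called changed with an adjusted p under 0.05 (edgeR quasi-likelihood test, Benjamini-Hochberg over all genes tested) and an absolute log2 fold change over 1, and errors of fold changes are standard errors (SE). In EBs, a change in RNA per cell and a change in the share of cells that express a gene cannot be told apart.

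Across genes, levels were compared as CPM per kilobase of exon. In IκBα-WT mESCs Rarg, the receptor, had the highest level of the 9 genes, with a median of 47.5 CPM per kb (45.2 to 49.7). The binding protein gene Crabp1 (12.4) and the receptor gene Rara (9.84) followed, and their ranges over the 3 clones overlapped. Crabp2, which encodes the other binding protein, was at a median of 4.59 CPM per kb and the synthesis gene Aldh1a2 at 1.00, each apart from its neighbours. Cyp26a1 (0.266), Dhrs3 (0.179), Stra6 (0.0793) and Rarb (0.0314) were lowest, with only the ranges of Cyp26a1 and Dhrs3 overlapping. The last 4 members were thus near the bottom of what these libraries can count: Cyp26a1 had 13 to 19 reads per IκBα-WT library, Dhrs3 14 to 21, Stra6 12 to 19 and Rarb 4 to 6. At 48 hr Rarg (median 59.9 CPM per kb) and Rara (20.3) were the 2 highest, their ranges did not overlap, and Rara stood above Crabp2 (7.57) and Crabp1 (5.64). At 96 hr the order among all neighbours was blurred by overlapping ranges, and Cyp26a1 stood at rank 3 with a median of 6.16 CPM per kb and a range of 0.953 to 93.4.

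**Figure D1:**
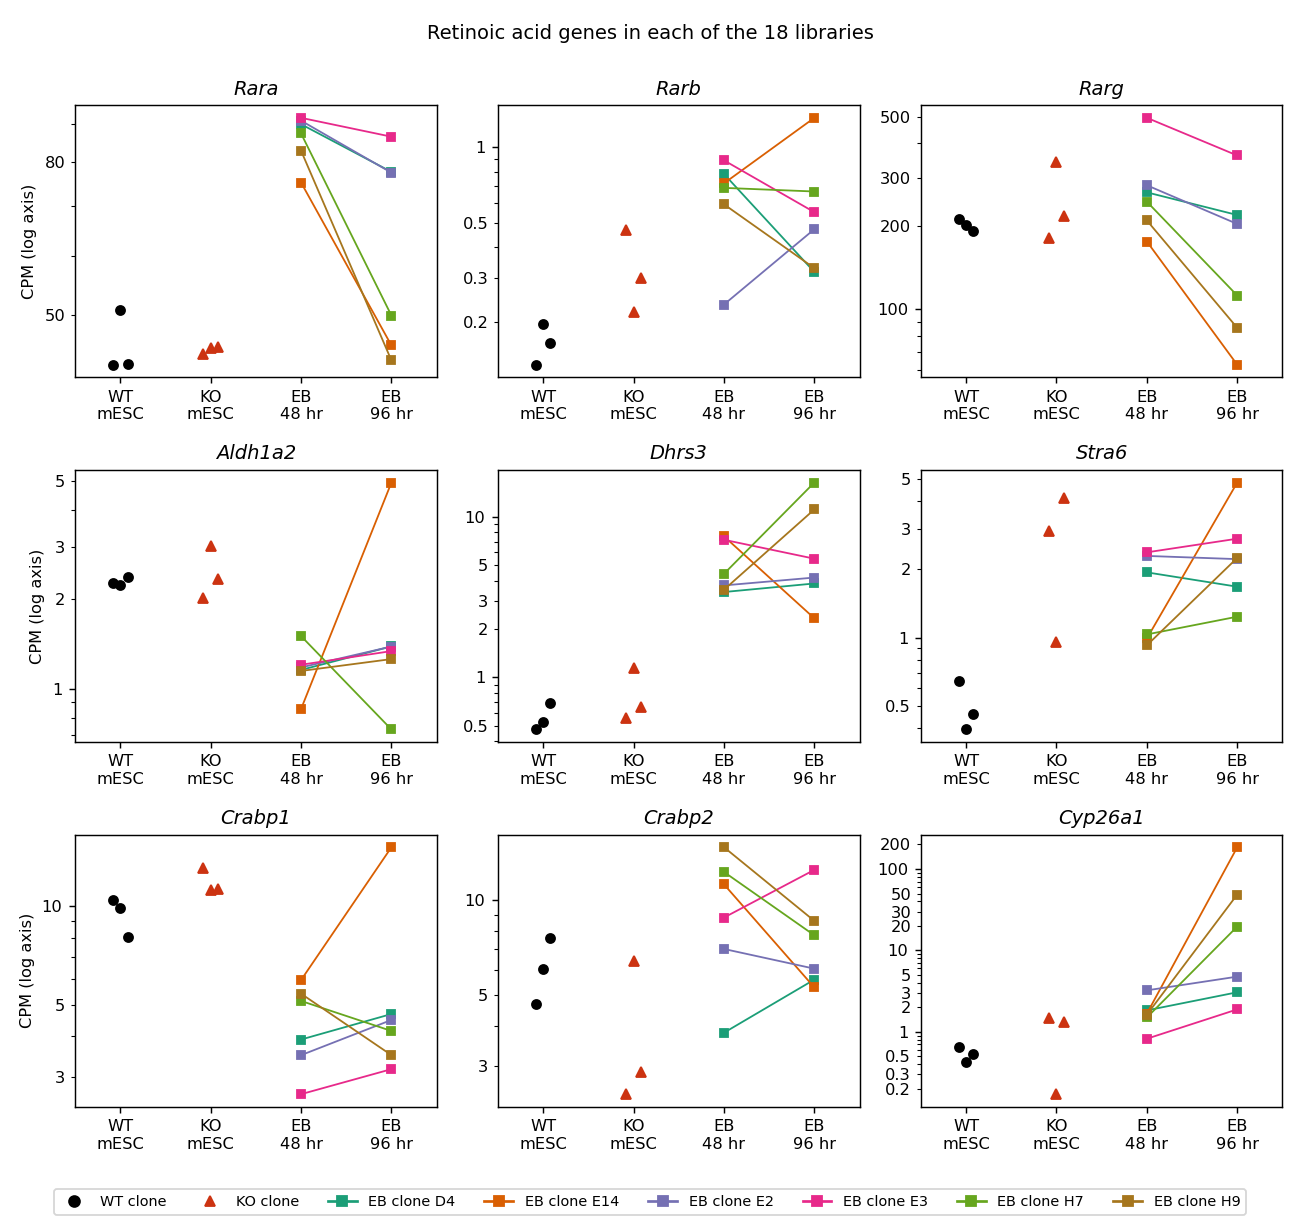
CPM (log axis, own scale in each panel) of the 9 genes in the 18 libraries. Circles are IκBα-WT and triangles IκBα-KO mESC clones, and squares joined by lines are the EBs of 1 clone code at 48 hr and 96 hr. Cyp26a1 lies between 0.824 and 3.23 CPM at 48 hr and between 1.89 and 185 CPM at 96 hr, and Dhrs3 is higher in all 12 EB libraries than in all 6 mESC libraries.

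Whether loss of IκBα changed RA genes in mESCs was asked first, with 3 clones against 3. Stra6, the retinol receptor gene (chr9:58063788-58153996, plus strand), was the 1 member called, higher in IκBα-KO mESCs, and no member was called lower. Over all 21843 genes tested, 1.06% were called higher and 0.641% lower. Stra6 was at 0.644, 0.394 and 0.462 CPM in IκBα-WT clones 1 to 3 and at 2.96, 0.957 and 4.14 CPM in IκBα-KO clones 1 to 3, from 12 to 19 and 39 to 152 reads. The genotypes did not overlap, and IκBα-KO clone 2 was much closer to the IκBα-WT clones than the other IκBα-KO clones were. The difference was 2.42 ± 0.54 on the log2 scale (SE, adjusted p = 0.0434), a fold of 5.35. It was not called when any 1 clone other than IκBα-KO clone 2 was left out (log2 fold change 1.95 to 2.64, adjusted p = 0.106 to 0.203), without a filter on low counts (adjusted p = 0.052) or when all 18 libraries shared 1 fit (adjusted p = 0.251), and without IκBα-KO clone 2 it was 2.83 (adjusted p = 2.7e-05). Summed levels of 9 primitive or definitive endoderm markers followed the same clones, at 12.4 to 17.1 CPM in IκBα-WT mESCs and 79.3, 14.8 and 126 CPM in IκBα-KO clones 1 to 3. No endoderm marker was called on its own by edgeR (median log2 fold change 2.20, 6 of 9 with an unadjusted p under 0.05), DESeq2's Wald test called 4 of 9 higher, and their part in the Stra6 difference was not tested.

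The receptors did not pass the test in IκBα-KO mESCs. Rara, the broadly expressed receptor gene, averaged 45.5 ± 4.52 CPM (SD, n = 3) over IκBα-WT clones and 44.9 ± 0.506 CPM over IκBα-KO clones (log2 fold change -0.02 ± 0.09, adjusted p = 0.926). Rarg was at 202 ± 9.60 CPM and 247 ± 84.0 CPM (log2 fold change 0.28 ± 0.19, adjusted p = 0.447). The IκBα-KO spread of Rarg came from clone 2, at 341 CPM against 181 and 218 CPM in clones 1 and 3. In clone 2 the median gene of the 10 Mb window around Rarg on chromosome 15 was also shifted, by 0.55 on the log2 scale from the IκBα-WT mean, and Rarg itself by 0.74. Whether the shift of the window sets the level of Rarg was not tested. Rarb had 4, 6 and 5 reads in the IκBα-WT clones and 16, 9 and 11 in the IκBα-KO clones. Every IκBα-KO clone was above every IκBα-WT clone for Rarb (log2 fold change 0.96 ± 0.45, adjusted p = 0.258), and the difference did not pass the adjusted threshold.

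Among the remaining members, Crabp1 averaged 9.48 ± 1.27 CPM (SD, n = 3) over IκBα-WT clones and 11.9 ± 1.07 CPM over IκBα-KO clones (log2 fold change 0.32 ± 0.15, adjusted p = 0.243). Rarb, Crabp1 and Stra6 were thus the 3 of 9 members in which all IκBα-KO clones were above all IκBα-WT clones, and no member had all IκBα-KO clones below. Of all genes tested, 15.1% showed the first pattern and 13.9% the second, and the exact permutation test of 3 against 3 clones (two-sided) cannot give a p below 0.1, the value each of the 3 genes had. Crabp2 and Cyp26a1 were marked by IκBα-KO clone 2. Crabp2 was at 4.71, 6.07 and 7.59 CPM in IκBα-WT clones and 2.44, 6.40 and 2.86 CPM in IκBα-KO clones (log2 fold change -0.65 ± 0.35, adjusted p = 0.334). Cyp26a1 was at 0.644, 0.427 and 0.528 CPM in IκBα-WT clones and 1.47, 0.172 and 1.31 CPM in IκBα-KO clones (log2 fold change 0.87 ± 0.65, adjusted p = 0.487). The genotypes overlapped for these 2 genes with all clones. Without IκBα-KO clone 2, Crabp2 was called lower (-1.20, adjusted p = 0.00199) and Cyp26a1 higher (1.4, adjusted p = 0.00537). Aldh1a2 (0.10 ± 0.21, adjusted p = 0.828) and Dhrs3 (0.48 ± 0.35, adjusted p = 0.472) had overlapping genotypes and were not called.

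**Figure D2:**
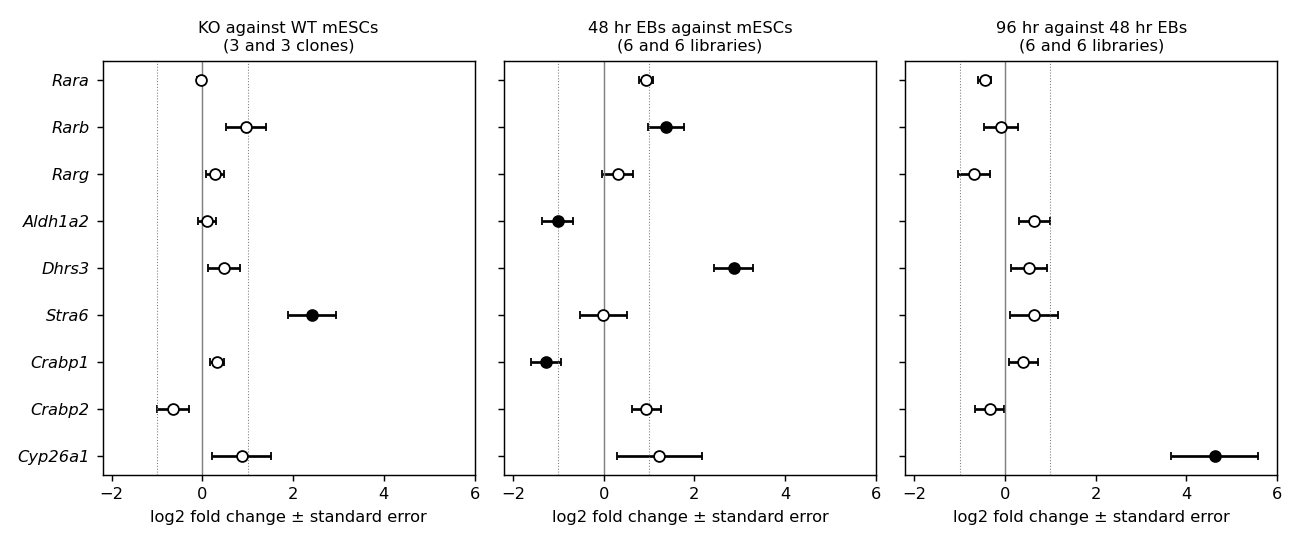
Log2 fold change with its SE (x axis) of each of the 9 genes (y axis) between genotypes in mESCs, from mESCs to 48 hr EBs and from 48 hr to 96 hr EBs. Filled circles are called, open circles are not, and dotted lines mark a log2 fold change of 1 in either direction. Stra6 is the filled circle between genotypes (2.42), Dhrs3 the highest one at 48 hr (2.86) and Cyp26a1 the only one from 48 hr to 96 hr (4.62).

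What changed as cells left the mESC state was asked with 6 libraries of 48 hr EBs against 6 of mESCs. Dhrs3 and Rarb rose, Aldh1a2 and Crabp1 fell, and the other 5 members were not called. Over all 25318 genes tested, 4.62% were called higher and 4.95% lower. The share of all genes without overlap between these stages was not counted, so a lack of overlap only describes a gene. Dhrs3 (chr4:144892827-144928209, plus strand), whose product returns retinaldehyde to retinol, ranged from 0.475 to 1.15 CPM in mESCs (median 0.606) and from 3.40 to 7.56 CPM at 48 hr (median 4.08). The stages did not overlap for Dhrs3, with a log2 fold change of 2.86 ± 0.43 (adjusted p = 6.58e-05). Rarb (chr14:16430839-16819156, minus strand) ranged from 0.136 to 0.470 CPM in mESCs (median 0.209) and from 0.236 to 0.887 CPM at 48 hr (median 0.703). E2 was the 1 EB library of the 48 hr stage inside the mESC range, and the log2 fold change was 1.37 ± 0.40 (adjusted p = 0.0144). Against the IκBα-KO mESCs alone the Rarb difference was 0.98 (adjusted p = 0.145). Rarb exons share 2020 of 5265 bases with Top2b and a predicted gene on the opposite strand. The strand setting of the counting is not given in the sources used here, so reads of Rarb in those bases cannot be told apart from theirs.

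Aldh1a2, the gene of the RA-synthesising enzyme, ranged from 2.03 to 3.02 CPM in mESCs (median 2.31) and from 0.855 to 1.503 CPM at 48 hr (median 1.17). Its stages did not overlap, and the log2 fold change of -1.02 ± 0.34 (adjusted p = 0.0326) lay at the threshold. The call was lost without IκBα-KO clone 2 (adjusted p = 0.0634) and without D4 (0.0502), E14 (0.068), E2 (0.0527) or H9 (0.0544) at 48 hr. It was also lost against either mESC genotype alone (0.117 and 0.0726 for IκBα-WT and IκBα-KO). Crabp1 ranged from 8.06 to 13.1 CPM in mESCs (median 10.8) and from 2.66 to 5.95 CPM at 48 hr (median 4.52), again without overlap. Its log2 fold change was -1.27 ± 0.33 (adjusted p = 0.00688), and -1.10 (adjusted p = 0.0569) against IκBα-WT mESCs alone. The other binding protein gene, Crabp2, was at 2.44 to 7.59 CPM in mESCs and 3.81 to 14.7 CPM at 48 hr. Its log2 fold change of 0.94 ± 0.32 passed the adjusted p (0.0362) and not the fold threshold. Rara, at 42.9 to 50.7 CPM in mESCs and 75.2 to 91.8 CPM at 48 hr, gave 0.93 ± 0.15 (adjusted p = 9.79e-05). Rara had no overlap between stages and the smallest spread relative to its level of the 9 genes at 48 hr, and its fold of 1.91 stayed under the fold threshold.

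Rarg, Cyp26a1 and Stra6 were not called at 48 hr. Rarg ranged from 181 to 341 CPM in mESCs and from 176 to 495 CPM at 48 hr (log2 fold change 0.31 ± 0.34, adjusted p = 0.550), and E3 had the highest level at both EB stages. Cyp26a1 ranged from 0.172 to 1.47 CPM in mESCs and from 0.824 to 3.23 CPM at 48 hr, with E2 highest. Its log2 fold change was 1.23 ± 0.93 (adjusted p = 0.364), and it was called (adjusted p = 0.0465) when the 96 hr libraries were left out of the fit. For Stra6 the stage comparison depended on which mESCs were the reference. Stra6 was at 0.925 to 2.38 CPM at 48 hr, above all IκBα-WT mESCs and below IκBα-KO clones 1 and 3. The log2 fold change was -0.01 ± 0.52 (adjusted p = 0.996) against all mESCs, 0.46 (adjusted p = 0.415) with IκBα-WT and IκBα-KO mESCs as separate levels, and 1.67 (adjusted p = 0.031) against IκBα-WT mESCs alone.

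Between 48 hr and 96 hr Cyp26a1 rose in every clone, and it was the 1 member called. Over all 25318 genes tested, 7.1% were called higher and 4.76% lower. The share of all genes that rose in every clone was not counted. Cyp26a1 (chr19:37697798-37701536, plus strand) encodes the enzyme that clears RA. At 48 hr it was at 1.84 CPM in D4, 1.68 in E14, 3.23 in E2, 0.824 in E3, 1.503 in H7 and 1.63 in H9. At 96 hr it was at 3.06 CPM in D4, 185 in E14, 4.77 in E2, 1.89 in E3, 19.7 in H7 and 48.6 in H9, from 72 to 7062 reads. Levels at 48 hr lay within a factor of 3.93 of each other and those at 96 hr within a factor of 98, with E14, H9 and H7 far above all 48 hr libraries and D4, E2 and E3 between 1.89 and 4.77 CPM. The rise within a clone was 110-fold in E14, 29.8-fold in H9 and 13.1-fold in H7, and 2.29-fold, 1.67-fold and 1.47-fold in E3, D4 and E2. The log2 fold change over stages was 4.62 ± 0.96 (adjusted p = 0.0021). It was 3.15 (adjusted p = 0.00544) without E14 at 96 hr and 3.07 (adjusted p = 0.048) with the clone code as a block. Summed levels of the 8 primitive streak and mesoderm markers went with these values by library, at 1211 CPM in E14, 970 in H9 and 645 in H7, and 29.0, 28.6 and 21.1 CPM in D4, E2 and E3. All 8 of these markers were called higher at 96 hr than at 48 hr, and their part in the Cyp26a1 difference was not tested. Nfkbia, the targeted gene, was at 19.9, 23.0 and 14.5 CPM in E14, H9 and H7 at 96 hr. In D4, E2 and E3 at 96 hr Nfkbia was at 4.97, 7.01 and 8.53 CPM. The columns give no genotype, so the part of genotype in this split of the clones was not tested.

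**Figure D3:**
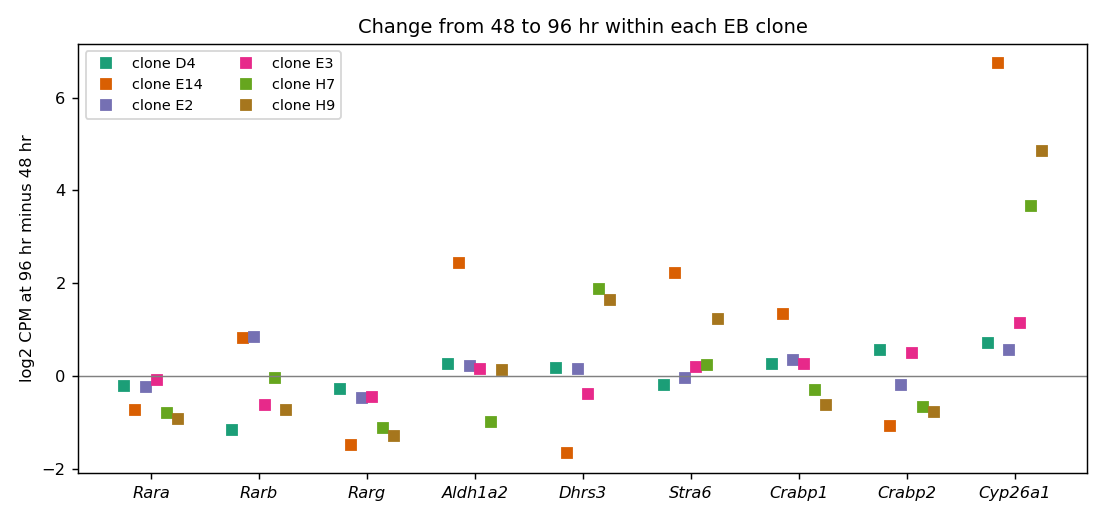
Log2 CPM at 96 hr minus log2 CPM at 48 hr (y axis) of the 9 genes (x axis) within each of the 6 EB clone codes, 1 square per clone. All 6 squares of Cyp26a1 lie above 0, from 0.55 in E2 to 6.74 in E14, and all 6 squares of Rara and of Rarg lie below 0.

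Rara and Rarg were lower at 96 hr than at 48 hr in 6 of 6 clones each. For Rara the ratio of 96 hr to 48 hr ran from 0.524 in H9 to 0.943 in E3, and the log2 fold change of -0.45 ± 0.15 passed the adjusted p (0.0296) and not the fold threshold. Levels of Rara were 77.5 to 86.6 CPM in D4, E2 and E3 at 96 hr and 43.5 to 49.9 CPM in E14, H7 and H9, which is within the mESC range. For Rarg the ratio ran from 0.357 in E14 to 0.828 in D4. Its log2 fold change was -0.68 ± 0.34 (adjusted p = 0.151), -0.82 (adjusted p = 0.00937) with the clone code as a block, and -1.03 (adjusted p = 0.0187), now called, without E3 at 96 hr. E3 kept the highest Rarg level, 361 CPM, where E14 had 62.8 CPM.

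The other 6 members moved in different directions in different clones after 48 hr and were not called. Dhrs3 was at 3.70 and 3.16 times its 48 hr level in H7 and H9 and at 0.309 times in E14 (log2 fold change 0.54 ± 0.39, adjusted p = 0.327). Stra6 was at 4.86 times its 48 hr level in E14, 2.43 times in H9 and 0.865 to 1.20 times in the other clones (0.64 ± 0.52, adjusted p = 0.382, and 0.38 without E14 at 96 hr). E14 at 96 hr stood alone in 2 further genes. Aldh1a2 was at 4.93 CPM in E14 and 0.730 to 1.39 CPM in the other 96 hr EBs. The log2 fold change of Aldh1a2 was 0.65 ± 0.34 (adjusted p = 0.165) with E14 and 0.09 (adjusted p = 0.785) without E14 at 96 hr. Crabp1 was at 15.2 CPM in E14 and 3.17 to 4.68 CPM in the others. The log2 fold change of Crabp1 was 0.41 ± 0.33 (adjusted p = 0.375) with E14 and -0.11 without E14 at 96 hr. Rarb was between 0.318 and 1.31 CPM (-0.10 ± 0.37, adjusted p = 0.881, and -0.44 without E14 at 96 hr), highest in E14, and Crabp2 between 5.30 and 12.5 CPM (-0.34 ± 0.32, adjusted p = 0.464), highest in E3.

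Over the whole course, 96 hr EBs differed from mESCs in 3 members, Cyp26a1, Dhrs3 and Rarb, all higher. Among all genes tested 11.2% were called higher and 9.65% lower. This comparison shares its libraries with the 2 stage steps above and is no separate evidence. Dhrs3 was 2.33 to 16.3 CPM at 96 hr, above every mESC library, with a log2 fold change of 3.40 ± 0.44 (adjusted p = 7.66e-06). Cyp26a1 gave 5.85 ± 1.03 (adjusted p = 0.000178), and 4.37 (adjusted p = 0.000224) without E14 at 96 hr. Rarb gave 1.27 ± 0.40 (adjusted p = 0.0142), and 0.92 (adjusted p = 0.0486, under the fold threshold) without E14 at 96 hr. Crabp1 passed the adjusted p at -0.86 ± 0.32 (0.0387) and was called lower without E14 at 96 hr (-1.39, adjusted p = 2.38e-05). Rara passed it at 0.49 ± 0.15 (0.0112). Stra6 was again split by reference, at 0.64 ± 0.52 (adjusted p = 0.343) against all mESCs, 2.31 (adjusted p = 0.00296) against IκBα-WT mESCs and -0.11 (adjusted p = 0.876) against IκBα-KO mESCs. Rarg, Aldh1a2 and Crabp2 were not called. For Aldh1a2 the log2 fold change was -0.37 ± 0.33 (adjusted p = 0.398) with E14 and -0.94 (adjusted p = 0.00104, under the fold threshold) without E14 at 96 hr.

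Other genes of the pathway were read from 4 whole lists, whatever their change. Both further RA-degrading enzymes, Cyp26b1 and Cyp26c1, rose from 48 hr to 96 hr, where 7.1% of all genes tested were called higher. They were named after their values were seen, since they had few reads. Cyp26b1 went from 0.148 to 0.171 CPM at 48 hr to 0.145 to 1.28 CPM at 96 hr. Its log2 fold change was 1.62 ± 0.41 (adjusted p = 0.00711), and it was up in 5 of 6 clones. E14 at 96 hr had 49 reads of Cyp26b1, against 5 to 20 in the other 96 hr EBs. Cyp26c1 was up in 6 of 6 clones (2.05 ± 0.47, adjusted p = 0.00396). Neither was called between genotypes or between mESCs and 48 hr EBs.

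Among 17 other genes of RA synthesis and retinoid handling, none of the 16 tested was called between genotypes by edgeR (5 had an unadjusted p under 0.05), while DESeq2's Wald test called 1, Rbp4, higher. At 48 hr 1 of 17 was higher, Aldh1a7, an aldehyde dehydrogenase gene with few reads that was named after its values were seen. Over all genes tested, 4.62% were called higher in that step. From 48 hr to 96 hr the retinol carrier gene Rbp4 rose (1.21 ± 0.30, adjusted p = 0.00617, up in 6 of 6 clones). None of the 17 was called lower in either step, beside 4.95% and 4.76% of all genes tested. The median log2 fold change of this list was 0.25 at 48 hr and -0.11 from 48 hr to 96 hr, beside 0.00 and -0.03 over all genes tested.

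Of the 10 RXRs and coregulators, which pair with RARs or carry their signal to chromatin, none was called between genotypes by edgeR (3 had an unadjusted p under 0.05), while DESeq2 called 1, Rxrg, lower. At 48 hr 2 of 10 rose, where 4.62% of all genes tested were called higher. Rxrg, an RXR gene, had a log2 fold change of 2.02 ± 0.37 (adjusted p = 0.000475), and Nrip1, the gene of a corepressor that RA is known to induce, 1.21 ± 0.15 (adjusted p = 9.08e-06). None was called from 48 hr to 96 hr by either tool, where by edgeR 7 of 10 had an unadjusted p under 0.05 and the median was 0.09. By 96 hr the coactivator gene Ncoa1 had fallen from its mESC level (-1.24 ± 0.11, adjusted p = 1.29e-07).

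Of the 20 genes known to respond to RA, those called changed were mostly higher. Between genotypes the median log2 fold change was 0.89, beside 0.01 over all genes tested. Of the 17 tested, 3 were called higher and none lower, beside 1.06% and 0.641% of all genes. These were Meis2 (1.98 ± 0.44, adjusted p = 0.0441) and, named after their values were seen, Cdx1 (1.70 ± 0.31, adjusted p = 0.0242) and Hoxb4 (2.35 ± 0.54, adjusted p = 0.0478), all genes of homeodomain factors. Meis2 had 117, 61 and 84 reads in IκBα-WT clones and 403, 209 and 646 in IκBα-KO clones, with no overlap and with clone 2 the lowest of the IκBα-KO clones. At 48 hr 5 of 20 were higher and 1 lower, beside 4.62% and 4.95% of all genes tested. From 48 hr to 96 hr 4 were higher and none lower (8 and none by DESeq2). Over all genes tested in that step, edgeR called 7.1% higher and 4.76% lower. Fgf8, the gene of a growth factor of the primitive streak and the tail end of the embryo, rose at both steps (3.72 ± 0.83, adjusted p = 0.00246, then 2.91 ± 0.73, adjusted p = 0.00722). Its 96 hr reads were 1854 in E14, 2064 in H7 and 3023 in H9, and 161, 196 and 229 in D4, E2 and E3. The anterior Hox gene Hoxb1 rose at 48 hr (3.51 ± 0.77, adjusted p = 0.0021). Tgm2, a transglutaminase gene, fell at 48 hr (-1.39 ± 0.28, adjusted p = 0.000974) and rose by 96 hr (1.80 ± 0.28, adjusted p = 0.000258) in 6 of 6 clones. Stra8, named after its values were seen, was not called in either step. From 48 hr to 96 hr Stra8 was lower in 5 of 6 clones and higher in E3. In E14 it went from 312 to 19 reads. Against mESCs 11 of 20 were higher at 96 hr and none lower, beside 11.2% and 9.65% of all genes tested. The median of the 20 was 1.44, beside -0.01 over all genes tested. The list sets no direction of response to RA for its genes, Fgf8 among them, so these counts do not measure RA activity. The streak marker levels given above for the 96 hr libraries stand beside these counts too, and their part in them was not tested. None of the genes of these lists that had a promoter window held a DR5 or a DR2.

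**Figure D4:**
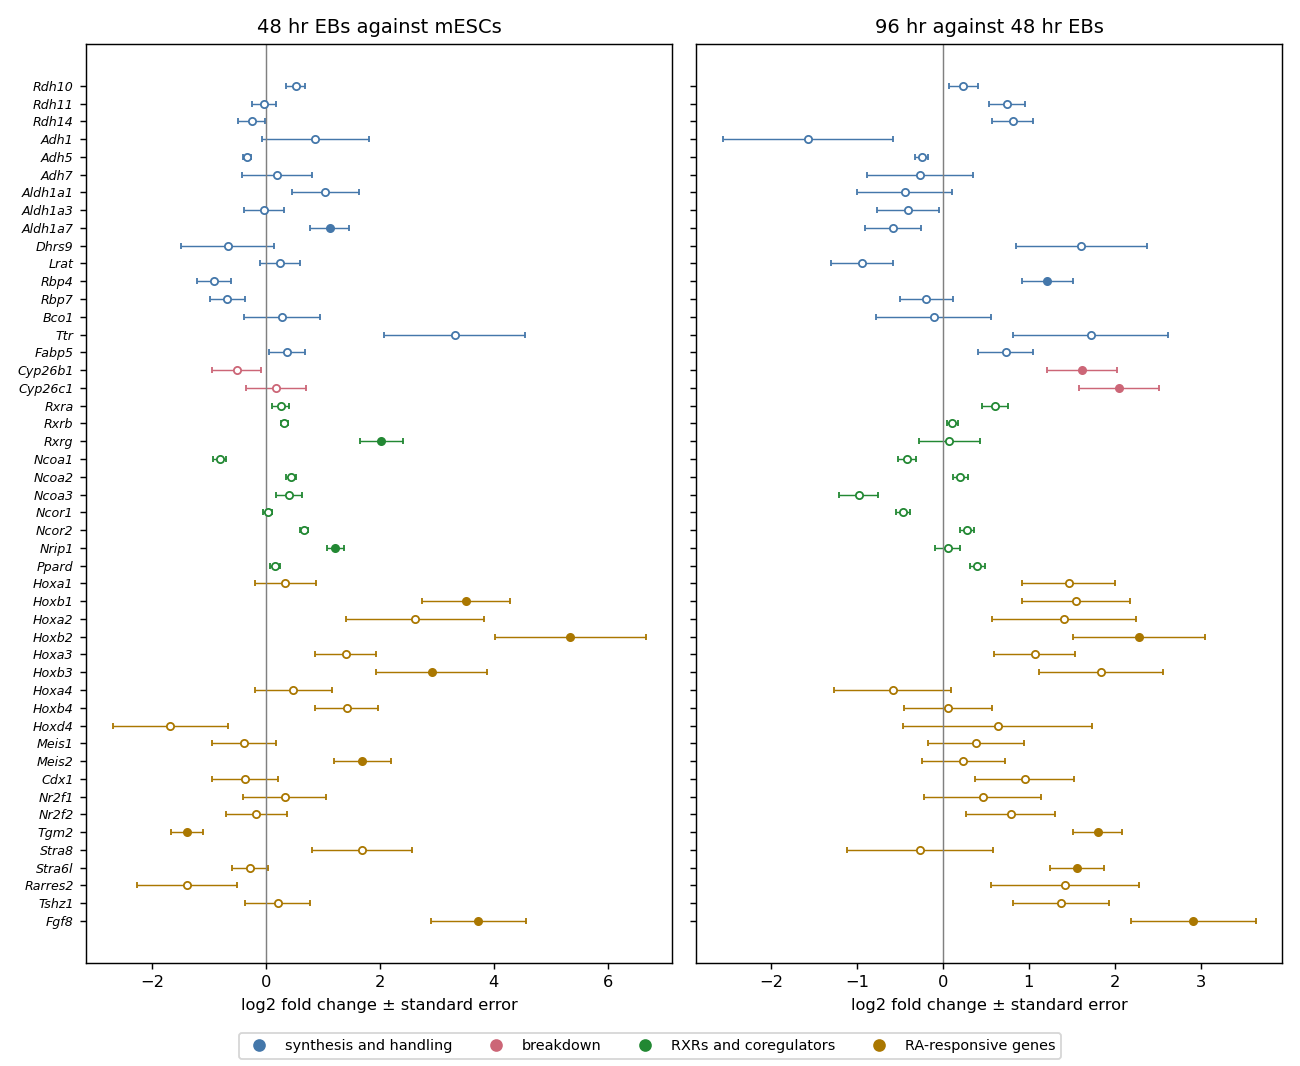
Log2 fold change with its SE (x axis) of other genes of RA metabolism and response (y axis), from mESCs to 48 hr EBs (left) and from 48 hr to 96 hr EBs (right). Colours mark the 4 lists, and filled circles are called. Cyp26b1 (1.62) and Cyp26c1 (2.05) are filled on the right only, and Fgf8 is filled on both sides (3.72 and 2.91).

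The genes whose log2 CPM was most like that of a member over the 18 libraries were found among 13177 genes that averaged 50 counts or more per library. These libraries share stages and clones, so the values of Pearson's r describe them and carry no test. The closest to Cyp26a1 were Amot (0.968), Smad1 (0.964) and Lcp1 (0.960). The closest to Rarg was Trim6 (0.975), to Rara Urm1 (0.964) and to Dhrs3 Plp2 (0.960). Aldh1a2 was closest to Dnah2 (0.930), Crabp2 to Mrps34 (0.917), Crabp1 to Ccdc32 (0.916) and Stra6 to Slc25a4 (0.911). Rarb, with the fewest reads, had the lowest best value, 0.825 with Alad.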

How the data were processed

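Bulk RNA-seq of 6 mESC, 6 48 hr EB and 6 96 hr EB libraries was analysed. The authors trimmed reads with Trim Galore 0.6.6, aligned them with STAR 2.7.8 to GRCm38 with Ensembl annotation, counted them on exons with featureCounts (Subread 2.0.1) and deposited raw counts. Their table of normalized values was not used. Of 55487 gene IDs, 55141 had a symbol; exon lengths came from GENCODE vM21. In R 4.3.3, edgeR 4.0.16 (TMM, robust quasi-likelihood test, Benjamini-Hochberg) compared genotypes in the 6 mESC libraries and stages in 1 fit of 18 libraries, with genes of at least 10 counts over the fit. The call rule was the one given above (0.05 for the adjusted p, 1 for the absolute log2 fold change). DESeq2 1.42.0 was an alternative, as were other scaling, filters, references, blocks and each library left out. Log2 CPM used a prior count of 2. SE is the absolute log2 fold change over the square root of F. With 3 clones a genotype, the spread between clones limits precision, and for genes with few reads the depth does too.

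Simulated counts held 21400 genes in the genotype design and 24871 genes in the design of 96 hr against 48 hr EBs. In the first, edgeR called 94% of 100 genes changed by 1.5 and 98% of 100 changed by 2 (log2). In the second it called 88% and 95%. The changed genes were drawn from those with a mean count of at least 50. In mESCs Rarb, Cyp26a1 and Dhrs3 were below that mean, so these rates do not cover them. Replicate numbers did not pair mESC clones (correlations of deviations from the group means -0.158, 0.000325 and -0.0227). EB libraries with the same clone code deviated together (0.382 to 0.728), but E14 at 48 hr correlated more with another code at 96 hr. Each EB stage holds both genotypes, so these values do not tell clone from genotype. The clone block takes its pairing from the codes in the column names. Every pair of libraries within a group differed by more than counting error (lowest chi-square over its degrees of freedom 5.47).

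Besides the 9 members and Nfkbia, genes were named from the 4 other RA lists if called, up to 6 per list with the largest change and a mean count of at least 50, and by the 3 most similar profiles per member. Stra8 was named without a call. The members and lists were chosen with earlier results of these data known. 1 gene of these lists is not reported here.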

Additional observations from a re-analysis of the deposited data

Results flagged for a closer look

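In groups of 6 libraries, 1 library stood apart from the rest in 3 of 18 groups of values tested (9 members at each EB stage), where chance alone sets about 1 in 20 apart. Each value is the gap from the outlying library to the nearest one divided by the range of the group, on log2 CPM. Rarb in E2 at 48 hr, at 0.236 CPM from 7 reads, was below the other 48 hr EBs with a gap of 0.679 of the range. Aldh1a2 in E14 at 96 hr, at 4.93 CPM, was above the other 96 hr EBs with a gap of 0.671. Crabp1 in E14 at 96 hr, at 15.2 CPM, was above them with a gap of 0.753. E14 at 96 hr also had the highest summed level of 8 streak and mesoderm markers (1211 CPM) and of 9 endoderm markers (366 CPM), and the part of either in these values was not tested.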

How the results depend on the processing

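Of 674 fold changes of members under an alternative, 623 kept their direction and their side of the threshold, 18 were no longer called, 18 became called and 15 changed direction. Between genotypes the 1 call became 0 without a filter on low counts and 0 with all 18 libraries in the fit (by edgeR, with 2 members and 1 at an unadjusted p under 0.05), and leaving out 1 clone gave 0 to 3 calls: 3 without IκBα-KO clone 2 and 0 without any other. The DESeq2 Wald test called 1. With no fold threshold, members called were 2 from 48 hr to 96 hr and 5 from mESCs to 96 hr, and leaving out 1 library gave 1 to 2 calls from 48 hr to 96 hr (2 without E3 at 96 hr). Stra6 turned to 0.46 (separate levels of the genotypes) and 1.67 (IκBα-WT reference) at 48 hr, and to -0.11 (IκBα-KO reference) at 96 hr. Leaving out 1 library, log2 fold changes between genotypes ran from -0.066 to 0.061 for Rara, -0.013 to 0.46 for Rarg and -0.062 to 0.22 for Aldh1a2, at 48 hr against mESCs from -0.22 to 0.55 for Stra6, and from 48 hr to 96 hr from -0.44 to 0.035 for Rarb and -0.11 to 0.53 for Crabp1, none of which was called in full. Over all genes, calls between genotypes were 372, and 572 by DESeq2, 1046 with no fold threshold, 174, 0 and 25 without IκBα-WT clones 1, 2 and 3, 198, 872 and 114 without IκBα-KO clones 1, 2 and 3, and 0 with all 18 libraries in the fit (3104 and 2305 genes had an unadjusted p under 0.05 where edgeR called 0). With no fold threshold, stage calls were 7053 in place of 2422 at 48 hr, 7019 in place of 3003 from 48 hr to 96 hr and 10894 in place of 5278 at 96 hr against mESCs. Causes were not tested. Rarb, Stra6, Cyp26a1 and Dhrs3 had at most 21 reads in each IκBα-WT mESC library, where counting error limits their levels, and the EB stages hold both genotypes, whose difference there is part of the spread.

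The replicate block called 1 member between genotypes (Stra6, 2.27) and the clone block 1 from 48 hr to 96 hr (Cyp26a1, 3.07); neither block changed a call of a member.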
